A study of Mus musculus with 14 samples.

Results

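The ovaries of DSS-treated and untreated mice were compared at day 7, across all annotated genes, in 7 of the 14 libraries of the series. The libraries were chosen by their labels alone: 4 DSS libraries (replicates 75, 80, 81 and 82) and 3 control libraries (replicates 10, 51 and 53). All mice were female and wild type, of the strain C57BL/6J. Dextran sulfate sodium (DSS) is a polymer that injures the lining of the colon and is given to mice to produce colitis, and the series text places this sampling at the end of the colitis model. The sources used here do not give the dose, the length of treatment, the age of the mice or the stage of the estrous cycle. The other 7 libraries, control (n = 3) and DSS (n = 4) ovaries of day 89, entered the fit only to steady the estimate of spread. Whether each library was made from a separate animal is not in the labels, so each p-value reflects only how far the libraries of a group scatter, and part of that scatter may be technical.

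The ovary makes eggs and steroid hormones in changing structures. A follicle holds an oocyte inside a protein coat, the zona pellucida, surrounded by dividing granulosa cells and an outer layer of theca cells; after ovulation its cells become the corpus luteum, which turns cholesterol into progesterone. Blood vessels, smooth muscle, fibroblasts and macrophages make up the tissue between them. In RNA from a whole ovary, fewer cells of a type and less RNA per cell cannot be told apart.

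Although the tissue is labelled ovary, the extract protocol speaks of retinas. Of 16 retina genes only 2 (Rom1 and Gnat2) passed the filter on low values, and the 16 together summed to between 4.71 and 7.95 FPKM per library. The 21 oocyte zona and secreted-factor genes summed to between 248 and 703 FPKM, and the 21 granulosa genes to between 1329 and 4416. FPKM is the number of fragments per kilobase of gene scaled to depth. In what follows, values of single libraries are in FPKM and stand in the order 10, 51, 53 for controls and 75, 80, 81, 82 for DSS.

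Depth was similar in all libraries, at 15260489 to 18505144 recovered reads, but the share of reads on mitochondrially encoded genes was not. It was 9.96%, 1.66% and 12.2% in controls and 14.2%, 3.48%, 4.04% and 3.88% in DSS. Control replicates 10 and 53 and DSS replicate 75 are the 3 libraries of high mitochondrial share below (over 8%). Control replicate 51 is thus the single control of low share, and DSS replicate 75 the single DSS library of high share. Over nuclear genes, DSS replicate 75 correlated with control replicate 53 at 0.968 and with control replicate 10 at 0.960, but with DSS replicates 80, 81 and 82 at 0.939, 0.942 and 0.928 (Pearson, log2 values of the well-covered genes of each pair, a description with no test). The other 3 DSS libraries correlated with each other at 0.983 to 0.986. On the first principal component, which took 40.4% of the variance, DSS replicates 80, 81 and 82 scored between -34.1 and -25.8, and all 3 controls and DSS replicate 75 between 9.97 and 32.9. DSS replicate 75 scored furthest from the other DSS libraries. Control replicate 51 stood apart as well. It correlated with control replicates 10 and 53 at 0.926 and 0.958, and with DSS replicate 75 at 0.917. On the second component, which took 29.4% of the variance, control replicate 51 scored -52.3 and the other libraries between -5.43 and 24.5. Summed globin, from red blood cells, was 49.3, 309 and 103 FPKM in controls and 520, 406, 720 and 504 in DSS, and these ranges did not overlap.

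**Figure D1:**
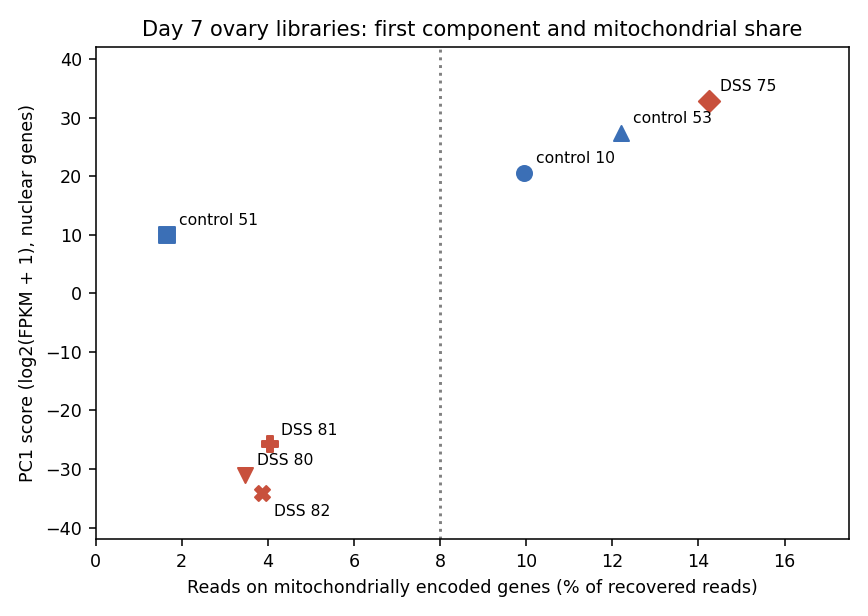
Each point is 1 day 7 library (blue, control; red, DSS), with the share of reads on mitochondrially encoded genes in percent on the x axis and its score on the first principal component of nuclear genes on the y axis; the dotted line marks 8%. DSS replicate 75, at 14.2%, lies beside control replicates 10 and 53, and DSS replicates 80, 81 and 82 lie together at scores below -25.

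Across 18006 tested genes, 6 (0.0333%) changed at an adjusted p under 0.05 (limma on log2(FPKM + 1), Benjamini-Hochberg over all genes), 1 (0.00555%) higher and 5 (0.0278%) lower in DSS. An unadjusted p under 0.05 was reached by 1524 genes that were higher (8.46%) and 1365 that were lower (7.58%). Every DSS library lay above every control for 1124 genes (6.24%) and below every control for 1057 (5.87%). These shares are the background for each list count. The median log2 difference of all genes was 0.00. Rescaling each library without its mitochondrially encoded genes shifted that median to 0.07 and the 2 counts at an unadjusted p under 0.05 to 1867 and 885. In what follows, "rose" and "fell" are kept for the 6 called genes, and other genes are described by their values.

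Prcd, named for an inherited rod and cone degeneration and encoding a small membrane protein, fell. Its levels were 25.7, 29.8 and 17.2 in controls and 9.53, 10.2, 10.8 and 8.25 in DSS, a difference of -1.21 on the log2 scale (SE 0.19, limma adjusted p = 0.0491), and all DSS libraries lay below all controls. It lies on the plus strand of chromosome 11 (GRCm38, 116653534 to 116668389), and its gene body overlaps Cygb on the other strand. Srcin1, a scaffold protein that inhibits the kinase SRC, fell as well, from 5.27, 6.12 and 4.44 to 2.29, 1.60, 2.21 and 2.34 (log2 -1.01, SE 0.16, limma adjusted p = 0.0491). It is on the minus strand of chromosome 11 (97509340 to 97576186), and its gene body overlaps Gm11611 on the same strand. DSS replicate 75 was no exception for Prcd or Srcin1: both stood as low there as in the other DSS libraries.

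The other 4 called genes are predicted or non-coding genes. Gm10131, on chromosome 8 (34111002 to 34111737, minus strand), was the 1 gene that rose, from 14.3, 13.5 and 16.2 to 31.4, 34.8, 28.4 and 36.8 (log2 1.11, SE 0.12, limma adjusted p = 0.00685). Its biotype is given as protein-coding but its description as a predicted pseudogene, so its reads, too, could come from a gene of similar sequence. Gm36738, a long non-coding RNA of chromosome 15 (78574411 to 78581616, minus strand), fell from 4.76, 4.93 and 5.73 to 1.90, 1.78, 1.83 and 1.86 (log2 -1.11, limma adjusted p = 0.0349). Its 4 DSS values lay close together. The long non-coding RNA 9330104G04Rik (chromosome 7, 16871347 to 16874886, minus strand) fell from 1.99, 2.62 and 2.06 to 0.740, 0.817, 0.693 and 0.988 (log2 -0.83, limma adjusted p = 0.0491). Gm12490 is a processed pseudogene (chromosome 3, 101260917 to 101261476, plus strand), so its reads could come from a gene of similar sequence. At day 7 only the 3 controls reached 0.5 FPKM, so it passed the filter there through the group in which it is high. It stood at 1.54, 1.64 and 1.92 in controls and 0.265, 0, 0.189 and 0.0938 in DSS (log2 -1.25, limma adjusted p = 0.0349). All 6 genes were also called without DSS replicate 75 and with a term for high mitochondrial share, while without DSS replicate 80 no gene was called. Of the 6, 3 stayed called with trimmed-mean scaling, 1 after rescaling without mitochondrially encoded genes and 1 with a pseudocount of 0.1 FPKM. None stayed called with limma's voom on recovered reads or with the day 7 libraries alone.

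Promoter sequence was looked at for 3 genes on which results below turn: Prcd as a called gene, Hmgcs1 for the cholesterol genes and Gbp3 for the interferon genes. Each line gives the 250 bases before the start site, 5′ to 3′ on the gene's strand, from RefSeq (GRCm38.p6), all 3 on the plus strand. Capitals mark a motif, which was chosen after a wider look at motifs in these windows. In Prcd (chr11:116656858-116657107) they mark AAGGTCA, the half-site of steroidogenic factor 1, the factor that drives steroid enzyme genes, and in Hmgcs1 (chr13:119690101-119690350) they mark CACCCCA, the core of the sterol regulatory element read by SREBP factors. In Gbp3 (chr3:142559794-142560043) they mark the core of the interferon response element, which is TTTC, any 2 bases and TTTC again, in 2 overlapping copies.
Prcd: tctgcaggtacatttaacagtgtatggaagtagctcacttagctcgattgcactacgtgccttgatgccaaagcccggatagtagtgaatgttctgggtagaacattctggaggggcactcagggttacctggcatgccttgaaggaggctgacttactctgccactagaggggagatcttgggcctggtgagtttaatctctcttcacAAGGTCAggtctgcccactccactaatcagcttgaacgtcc
Hmgcs1: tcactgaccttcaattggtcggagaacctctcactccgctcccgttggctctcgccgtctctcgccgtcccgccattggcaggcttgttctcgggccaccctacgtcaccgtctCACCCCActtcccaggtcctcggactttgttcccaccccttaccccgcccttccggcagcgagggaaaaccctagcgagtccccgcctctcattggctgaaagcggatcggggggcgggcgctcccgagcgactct
Gbp3: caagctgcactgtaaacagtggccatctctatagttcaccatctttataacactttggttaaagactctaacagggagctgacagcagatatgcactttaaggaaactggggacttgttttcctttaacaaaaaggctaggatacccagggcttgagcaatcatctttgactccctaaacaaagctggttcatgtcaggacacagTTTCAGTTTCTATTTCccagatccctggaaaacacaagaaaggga
Both strands were searched in the windows of all 32851 starts in the table. AAGGTCA was present in 4.08% of all windows and, among the called genes with a window (3 of 6), in Prcd, but in none of 12 steroidogenesis and none of 12 luteal genes with a window. It was also in 2 of 25 windows (8%) of the 19 cholesterol genes with a window, those of Dhcr7 and Hmgcs1. In Hmgcs1 it lies on the other strand and is not marked above. CACCCCA was in 6.68% of all windows and in 3 of 25 windows (12%) of these cholesterol genes, those of Hmgcs1, Soat1 and Srebf2. It was also in 4 of 18 windows (22.2%) of the 17 interferon-induced genes with a window. The interferon motif was in 2.98% of all windows and in 11 of 18 windows (61.1%) of the same interferon-induced genes. The windows are a description: a match is not a bound site. RefSeq's start of Prcd lies inside the gene body given above, which begins further upstream.

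Next to the called genes, the smallest p-values among higher genes belonged to Bpifb4, Mlf1, Sp2, Sf3b4, Lrg1, Tbrg1 and Polr2b, besides the calprotectin genes. Bpifb4, a secreted protein of the lipid-binding BPI family, stood at 9.59, 4.56 and 6.79 in controls and 39.2, 38.8, 27.5 and 39.4 in DSS (log2 2.26, SE 0.38, limma adjusted p = 0.0638). Its lowest DSS library stood well above its highest control. Mlf1, first known from myeloid leukemia and also expressed in ciliated cells, stood at 17.8, 8.53 and 13.3 and 32.2, 37.8, 28.2 and 29.5 (log2 1.26, limma adjusted p = 0.0638). Sf3b4, a splicing factor subunit, was at 15.8, 6.95 and 11.5 and 22.8, 37.5, 26.6 and 27.9 (log2 1.30). Polr2b, the second largest subunit of RNA polymerase II, was at 6.99, 7.21 and 7.27 and 10.6, 13.7, 11.2 and 12.8 (log2 0.67, limma adjusted p = 0.0814), a small difference between tight groups. The groups overlapped for none of these genes. Gene bodies on the other strand overlap Mlf1, Sp2, Sf3b4, Tbrg1 and Polr2b, and gene bodies on the same strand overlap Sf3b4 and Polr2b.

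Among lower genes close to the threshold were several of metabolism. Cmc2, a factor of cytochrome c oxidase assembly, stood at 24.9, 32.8 and 22.7 in controls and 14.03, 11.4, 14.2 and 10.98 in DSS (log2 -1.02, SE 0.17, limma adjusted p = 0.0638). Cox7a1, a subunit of the same oxidase found mainly in heart and muscle, was at 14.2, 8.59 and 9.25 and 1.94, 3.40, 3.46 and 3.83 (log2 -1.48). Upp2, which splits uridine, was at 2.55, 2.88 and 2.46 and 0.832, 1.14, 1.19 and 0.765, and Elovl6, an enzyme that lengthens fatty acids, at 16.5, 17.9 and 20.7 and 10.98, 3.19, 2.55 and 3.84 (log2 -1.83, limma adjusted p = 0.0872). Elovl6 was higher in DSS replicate 75 than in the other 3 DSS libraries, though still below every control. Trp53inp2, which takes part in autophagy, had the same order, with 37.7, 45.98 and 38.98 in controls and 28.1, 17.6, 15.9 and 16.3 in DSS. Cav3, the caveolin of muscle, was at 2.24, 3.51 and 2.11 and 0.962, 0.715, 0.365 and 1.04, and Olfm1, a secreted glycoprotein, at 17.6, 17.7 and 11.1 and 9.30, 5.32, 7.72 and 7.73. No DSS library reached the lowest control for any of these genes.

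**Figure D2:**
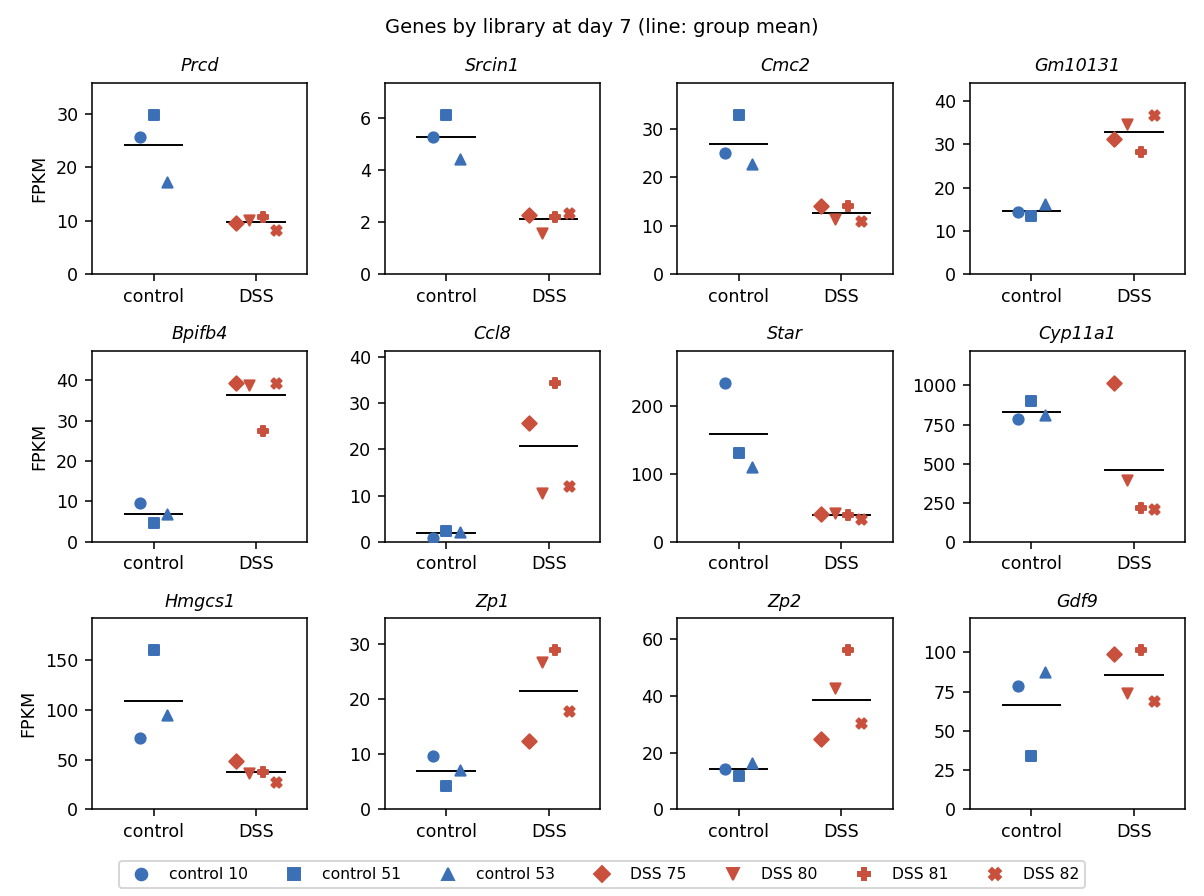
FPKM of 12 genes in each day 7 library (symbols as in the key; blue, control; red, DSS; black line, group mean; each y axis starts at 0). Prcd, Srcin1, Cmc2, Star and Hmgcs1 are lower in all 4 DSS libraries, Gm10131, Bpifb4, Ccl8, Zp1 and Zp2 higher in all 4, while for Cyp11a1 and Gdf9 the groups overlap.

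Oocyte genes stood higher in DSS ovaries. The 21 genes of the zona pellucida and of factors secreted by the oocyte all had a log2 difference above 0, with a median of 0.76; 9 had an unadjusted p under 0.05 and 9 did not overlap, all in the higher direction (8.46% and 6.24% of all genes), and none passed the threshold over all genes. Zp1, Zp2 and Zp3 build the zona. Zp1 was at 9.68, 4.23 and 7.10 in controls and 12.5, 26.7, 28.9 and 17.8 in DSS (log2 1.48, SE 0.44, limma adjusted p = 0.15), Zp2 at 14.4, 11.8 and 16.5 and 24.9, 42.7, 56.2 and 30.6 (log2 1.32), and Zp3 at 40.05, 24.8 and 42.8 and 61.2, 106, 114 and 74.8 (log2 1.28). For all 3, DSS replicate 75 was the lowest DSS library and still above every control. Gdf9, a growth factor by which the oocyte acts on granulosa cells, was at 78.6, 33.7 and 87.9 and 98.8, 74.3, 102 and 68.8, so its groups overlapped. Oosp2, an oocyte-secreted protein, was at 3.63, 1.75 and 3.17 and 3.29, 8.78, 10.4 and 7.67, with DSS replicate 75 among the controls. In the second oocyte list, 23 of 24 maternal-complex and regulator genes stood above 0 (median 0.47), with 6 higher at an unadjusted p under 0.05. They include Padi6, part of the cytoplasmic lattices of the oocyte, at 27.4, 25.6 and 24.3 and 36.1, 67.8, 80.3 and 48.4, and Nobox, a transcription factor of early oocytes, at 4.63, 2.10 and 5.21 and 6.57, 8.82, 11.3 and 7.13. Ybx2, which binds stored mRNA, was at 11.9, 2.09 and 6.05 and 15.8, 17.1, 19.5 and 11.9. Kit, the receptor by which the oocyte receives growth signals, was at 2.61, 5.71 and 3.23 and 5.87, 8.70, 9.15 and 7.34 (log2 0.89, limma adjusted p = 0.143). The zona list differed by a median of 0.25 within the high-share libraries (1 DSS, 2 controls) and 1.23 within the others (3 DSS, 1 control), where control replicate 51 had the lowest levels of Zp1, Zp2 and Zp3 of all 7.

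Granulosa genes did not move as a group: as a list mean, DSS replicate 75 lay below every control, replicates 80 and 81 within the controls and replicate 82 above them. The list's mean relative to the 7-library mean was -0.16, 0.27 and -0.04 in controls and -0.74, 0.04, 0.16 and 0.46 in DSS. Its median log2 difference was 0.09, with 1 higher and 2 lower of 21 genes at an unadjusted p under 0.05 (8.46% and 7.58% of all genes). Inha, the alpha subunit of inhibin, which restrains FSH release, was at 787, 876 and 562 and 366, 1262, 1406 and 2329. That is the lowest value of all 7 libraries in DSS replicate 75 and the 3 highest in the other DSS libraries. Amh, made by granulosa cells of small growing follicles, was at 112, 50 and 118 in controls and 102, 380.1, 311 and 194 in DSS (log2 1.33, limma adjusted p = 0.258), within the controls in replicate 75 and above them in the others. Foxl2, the transcription factor that keeps granulosa identity, was at 134, 106 and 88.9 and 84.2, 83.1, 82.5 and 87.96. All DSS values of Foxl2 lay just under the lowest control (log2 -0.35, limma adjusted p = 0.26). Theca genes, too, had their lowest list mean in DSS replicate 75, at -0.44, with 0.09 to 0.18 in the other DSS libraries and -0.20 to 0.35 in controls.

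Of 17 luteal genes and of 17 steroidogenesis genes, 12 in each list had a log2 difference below 0 and 5 above. Lower than every control in all 4 DSS libraries were 2 luteal and 3 steroidogenesis genes, against 5.87% of all genes. As a list mean, steroidogenesis stood at -0.105 in control replicate 10, close to the -0.33 to -0.13 of the DSS libraries. Star, which brings cholesterol into the mitochondrion, was low in every DSS library, at 234, 131 and 109.6 in controls and 41.2, 42.5, 39.7 and 33.5 in DSS (log2 -1.91, SE 0.43, limma adjusted p = 0.0885). Srd5a1, a steroid 5-alpha reductase, was at 33.2, 25.2 and 21.3 and 15.03, 15.7, 14.5 and 15.5. Cyp11a1, which cuts the cholesterol side chain, was at 786, 899 and 812 and 1019, 399, 218 and 212 (log2 -1.17, SE 0.44, limma adjusted p = 0.235), so DSS replicate 75 had the highest level of all 7. Lhcgr, the receptor of luteinizing hormone, was at 37.6, 38.9 and 29.4 and 35.3, 15.6, 6.01 and 5.92, and Prlr, the prolactin receptor, at 18.3, 24.1 and 22.6 and 21.96, 8.26, 6.05 and 5.41. For both receptors replicate 75 lay within the controls and replicates 80, 81 and 82 below them. With all libraries Prlr and Lhcgr did not pass the threshold (limma adjusted p = 0.239 and 0.284). Without replicate 75, Cyp11a1 and Prlr passed it (log2 -1.65 and -1.59, limma adjusted p = 0.0112 and 0.0333) and Lhcgr did not (log2 -1.96, limma adjusted p = 0.0668). That library was left out because its values stood apart, as they do here, so this fit is no separate support. Nr0b1, a repressor of steroidogenic factor 1, ran the other way, at 1.66, 2.45 and 3.33 and 2.26, 11.2, 9.59 and 15.8. Of 17 luteal genes 5 and of 17 steroidogenesis genes 6 were lower at an unadjusted p under 0.05, against 7.58% of all genes.

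The list mean of cholesterol genes was below that of every control in each of the 4 DSS libraries. Of 29 tested, 24 had a log2 difference below 0, 11 were lower at an unadjusted p under 0.05 and 12 lay below every control (median log2 -0.53), against 7.58% and 5.87% of all genes. Hmgcs1, which makes the precursor of mevalonate, was at 71.97, 159.7 and 94.7 in controls and 48.8, 36.8, 38.02 and 27.2 in DSS (log2 -1.45, SE 0.44, limma adjusted p = 0.155); its gene body overlaps an antisense RNA. Pmvk, a kinase further along the route, was at 10.8, 18.9 and 11.5 and 6.41, 3.86, 6.82 and 6.35. Cyp51 and Msmo1, which take methyl groups off sterol intermediates, were at 19, 47.7 and 36.5 and 14.6, 13.1, 11.9 and 11.7, and at 18.3, 39.4 and 28.8 and 16.6, 13.2, 14.4 and 12.2. For each of these 4 genes control replicate 51, the control of low mitochondrial share, was the highest of all libraries. Npc1, which exports cholesterol from lysosomes, went the other way, higher at 2.46, 1.69 and 1.95 and 2.56, 4.17, 3.50 and 4.58 (log2 0.62, limma adjusted p = 0.123). The list differed by -0.37 within the high-share libraries and by -0.82 within the others.

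Cell division genes set DSS replicate 75 apart from the other DSS libraries. The mean of 33 genes relative to the 7-library mean was -0.18, -0.12 and -0.20 in controls, -0.39 in DSS replicate 75 and 0.28, 0.26 and 0.34 in the other 3. Controls lay between the 2 kinds of DSS library. The median log2 difference was 0.31 in all libraries, -0.24 within the high-share libraries and 0.46 within the others. Cdc20, an activator of the anaphase-promoting complex, was at 10.3, 12.6 and 9.18 and 10.3, 22.7, 20.4 and 23.4, and Aurkb, a mitotic kinase, at 6.60, 5.67 and 5.92 and 5.24, 11.4, 11.9 and 12.5. Mcm5, a subunit of the replicative helicase, was at 6.47, 5.03 and 4.94 and 4.50, 10.7, 14.5 and 13.5. Ccnb1, the mitotic cyclin, was at 5.82, 2.74 and 5.67 and 7.22, 10.8, 11.2 and 14.5 (log2 1.07, SE 0.27, limma adjusted p = 0.111), and alone of these 4 it was also higher than every control in replicate 75. With all libraries, 7 of the 33 genes were higher and 1 lower at an unadjusted p under 0.05 (8.46% and 7.58% of all genes). Of the 33, 1 lay above every control and 1 below (6.24% and 5.87% of all genes), and none passed the threshold. Replicate 75 was left out because its values stood apart, as they do in this list, so the next count is no separate support. Without replicate 75, 9 of the 33 genes passed the threshold, all higher, against 3.47% of all genes. Aurkb was among them (log2 0.87, SE 0.15, limma adjusted p = 0.0095).

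Of 24 histone genes 14 were tested (median -0.25), with 2 higher and 3 lower at an unadjusted p under 0.05 (8.46% and 7.58% of all genes). The 4 named here are the ends of that list and do not stand for its kinds, which were not compared. The linker histone H1f2 was at 63.6, 78.6 and 51.05 in controls and 49.9, 20.6, 45.01 and 28.04 in DSS, and the core histone H2aw at 6.51, 10.8 and 8.76 and 4.36, 2.49, 4.06 and 2.96 (log2 -1.11, SE 0.23, limma adjusted p = 0.0814). Of the replacement histones, H2az1 was at 94.6, 180.3 and 127 and 203, 273, 248 and 210.2 (log2 0.84, limma adjusted p = 0.0975) and H3f3a at 91.5, 87.8 and 85.7 and 94.8, 132, 109.5 and 146. The groups overlapped for none of the 4. Messages of replication histones lack a poly(A) tail and those of replacement histones have one, so these values depend on how the RNA was selected, which the labels do not detail. H2aw and H3f3a also overlap other genes.

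**Figure D3:**
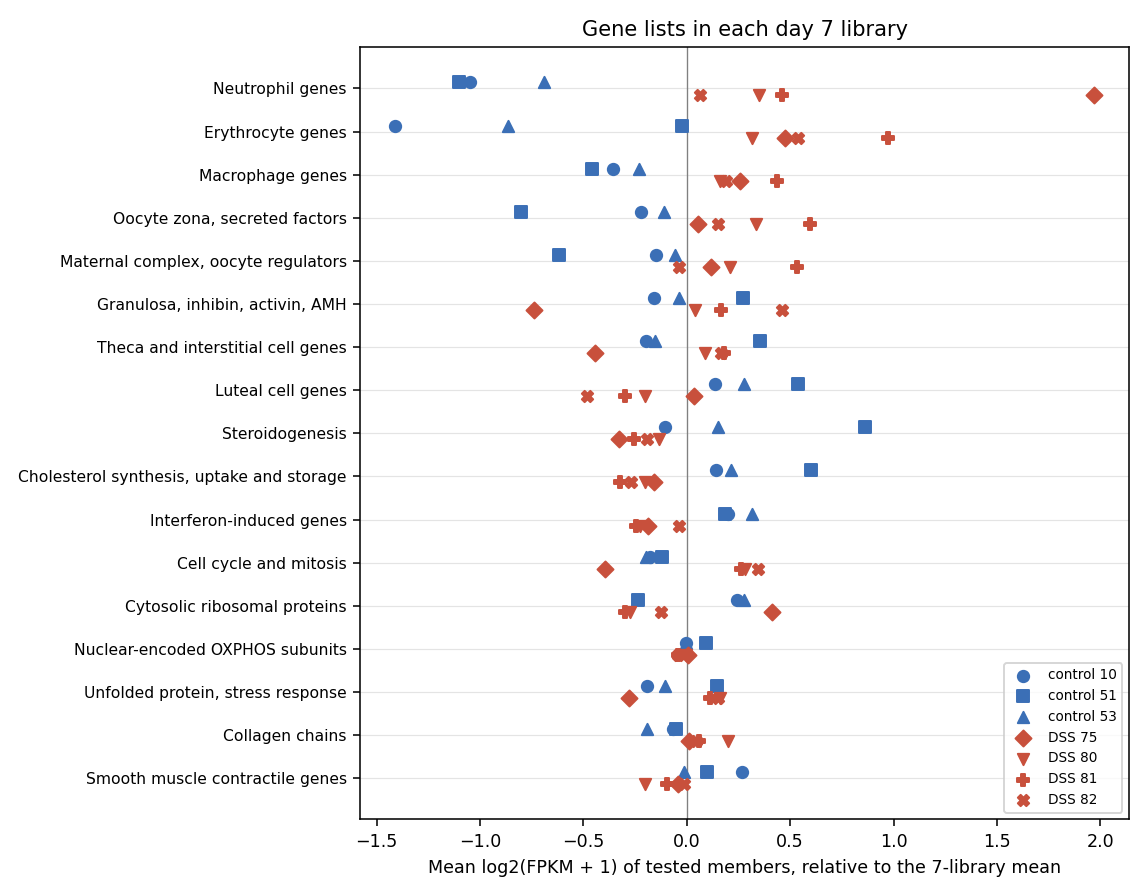
Mean log2(FPKM + 1) of the tested members of 17 gene lists in each day 7 library, relative to the mean of the 7 libraries (x axis; symbols by library; blue, control; red, DSS). For cell division, granulosa and theca genes DSS replicate 75 lies at the low end and the other DSS libraries do not, whereas for macrophage, cholesterol and interferon-induced genes all 4 DSS libraries lie on 1 side of the controls.

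Mitochondrial genes did not move together. The 15 mitochondrially encoded genes followed the 3 high-share libraries, with a list mean of 0.94, -1.63 and 1.48 in controls and 1.55, -1.04, -0.65 and -0.64 in DSS. Their median log2 difference was -0.51 in all libraries, yet 0.46 within the high-share libraries and 1.03 within the others, so the direction depended on the libraries set side by side. The list mean of the 40 nuclear-encoded subunits of oxidative phosphorylation stayed within -0.04 to 0.09 of the 7-library mean in every library, while single members moved more widely. The term for high share, described further on, called 2 of the 40 higher and 3 lower in the high-share libraries, against 4.96% and 4.17% of all genes. Cox4i1, a nuclear subunit of cytochrome c oxidase, was at 397, 438 and 400.3 and 531, 348, 349.7 and 345, highest in DSS replicate 75. Uqcrc2, a core subunit of complex III, was at 23.8, 36.1 and 23.8 and 25.9, 53.4, 42.5 and 47.1, lower in the high-share libraries (term -0.72, SE 0.12, limma adjusted p = 0.00488).

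The mitochondrial chaperones stood lower in every DSS library. Hspe1 and Hspd1 encode the chaperonin that folds proteins in the mitochondrial matrix and share 1 start region on opposite strands. Hspe1 was at 199.5, 302 and 272 in controls and 148, 152, 127 and 125 in DSS (log2 -0.88, SE 0.17, limma adjusted p = 0.0814), and Hspd1 at 190.3, 316 and 219.9 and 127, 159, 142 and 121 (log2 -0.79, limma adjusted p = 0.2). Mfn2, which fuses mitochondrial outer membranes, was at 18.1, 18.8 and 18.7 and 14.9, 11.8, 12.4 and 11.6 (log2 -0.52, SE 0.13, limma adjusted p = 0.107). The controls of Mfn2 lay close together, and no DSS library reached them. Timm23, the channel of the inner membrane import complex, stood the other way, at 12.7, 12.02 and 7.99 and 15.8, 40.8, 18.4 and 24.9. Mrpl12, a mitochondrial ribosomal protein, was at 104, 116 and 110.3 and 107, 57.6, 66.2 and 64.3, with DSS replicate 75 among the controls. In the whole list of 23 tested genes of mitochondrial translation, import and quality control the median was -0.22. At an unadjusted p under 0.05, 1 was higher and 4 lower, against 8.46% and 7.58% of all genes.

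Cytosolic ribosomal protein genes divided the libraries by mitochondrial share in their list mean. The mean of 37 genes was 0.24, -0.24 and 0.28 in controls and 0.41, -0.27, -0.30 and -0.13 in DSS: the 3 high-share libraries stood high and the other 4 low. Their median log2 difference between groups was -0.14, 0.18 within the high-share libraries and 0.01 within the others. Of the 37, 30 had a log2 difference between groups below 0 and 7 above. At an unadjusted p under 0.05, 1 was higher and 5 lower (8.46% and 7.58% of all genes), the lower including Rpl41, Rpl38 and Rpl13a. In a fit with a term for high share, 15 of the 37 were higher in the high-share libraries at an adjusted p under 0.05 and none lower, against 4.96% and 4.17% of all genes, with a median of 0.58. Rpl41 was at 2203, 1587 and 2360 and 2253, 685, 909 and 1024 (term 0.98, SE 0.24, limma adjusted p = 0.0245) and Rpl38 at 707, 542 and 985 and 664, 343, 359.9 and 397. Rpl13a was at 79.8, 107 and 75.9 and 58.01, 44.9, 37.3 and 38.3, below every control in all 4 DSS libraries (log2 -0.96, SE 0.18, limma adjusted p = 0.0777). Ribosomal protein genes have many near-identical pseudogenes, and Rpl13a holds small nucleolar RNAs, so the split of their reads is uncertain.

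Genes of protein folding in the endoplasmic reticulum and of the integrated stress response did not move together. Their list of 25 genes had a median of 0.07, with 3 higher and 2 lower at an unadjusted p under 0.05 (8.46% and 7.58% of all genes). The list mean was -0.28 in DSS replicate 75, 0.11 to 0.16 in the other DSS libraries, and 0.15 in control replicate 51 against -0.19 and -0.11 in the other controls. Single members set DSS replicate 75 apart from the other DSS libraries. Xbp1, the transcription factor of the unfolded protein response that secretory cells need, was at 27.5, 21.9 and 28.6 in controls and 29.4, 60.03, 50.9 and 60.3 in DSS (log2 0.88, SE 0.22, limma adjusted p = 0.107). Calr, a chaperone of that compartment, was at 147, 116 and 109 and 105, 237, 203 and 232, and Prdx4, a peroxidase of the same compartment, at 15.1, 19.4 and 14.1 and 15.3, 35.97, 36.1 and 39.3. In all 3, DSS replicate 75 lay close to the controls and the other DSS libraries well above every control. Atf4, the factor of the integrated stress response, ran the other way, at 125, 140.5 and 136 and 125.9, 94.8, 94.1 and 89.98. Asns, one of its targets, makes asparagine and stood at 4.65, 4.49 and 4.33 and 4.67, 10.2, 8.65 and 7.16. Heat shock genes of the cytosol showed no difference past the threshold: 1 of 21, Hsph1, was lower at an unadjusted p under 0.05, at 10.8, 24.4 and 21.7 and 7.91, 11.8, 10.7 and 10.5, and its groups overlapped.

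Clock genes differed in single members. Nfil3, a repressor of the clock's D-box genes, was at 2.66, 2.27 and 3.51 in controls and 4.62, 8.30, 7.36 and 5.05 in DSS (log2 0.92, SE 0.19, limma adjusted p = 0.0814). Tef, an activator through the same box, was lower at 33.8, 30.8 and 33.4 and 27.4, 25.02, 20.8 and 19.4, as was Per3, a member of the period family, at 6.57, 6.77 and 6.27 and 4.90, 4.86, 4.03 and 3.50. Nr1d2, a nuclear receptor that represses clock genes, was at 30.1, 43.4 and 29.1 and 22.9, 21.8, 22.8 and 20.2 (log2 -0.60, limma adjusted p = 0.118). The groups overlapped for none of these genes, and in DSS replicate 75 all 4 lay on the same side of the controls as in the other DSS libraries. In the whole list 6 of 19 genes lay below every control and 1 above, against 5.87% and 6.24% of all genes. The sources used here do not give the hour of collection.

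Of 25 fasting and glucocorticoid genes, 5 were higher and 1 lower at an unadjusted p under 0.05 (8.46% and 7.58% of all genes; median 0.16). Angptl4, an inhibitor of lipoprotein lipase, was at 22.5, 23.2 and 18.4 and 34.4, 28.3, 30.98 and 35.6 (log2 0.58, SE 0.15, limma adjusted p = 0.117). It stood above every control in all 4 DSS libraries. Igfbp1, which binds insulin-like growth factors, was at 0.0437, 0 and 0.0941 and 0.243, 1.74, 0.762 and 1.41, and reached 0.5 FPKM at day 7 only in DSS replicates 80, 81 and 82. Gsta2, a glutathione transferase, was at 1.24, 5.19 and 6.77 and 22.1, 16.8, 15.04 and 24.9 (log2 2.09, SE 0.42, limma adjusted p = 0.0814). Gpx1, the main cytosolic glutathione peroxidase, was at 126.5, 58.1 and 121 and 105, 33.4, 51.7 and 38.4 and followed mitochondrial share (term 1.23, SE 0.26, limma adjusted p = 0.0156). Cat, catalase, was at 37.2, 26.4 and 23.2 and 33.6, 42.05, 39.01 and 44.4. The 27 antioxidant genes had a median of 0.03.

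**Figure D4:**
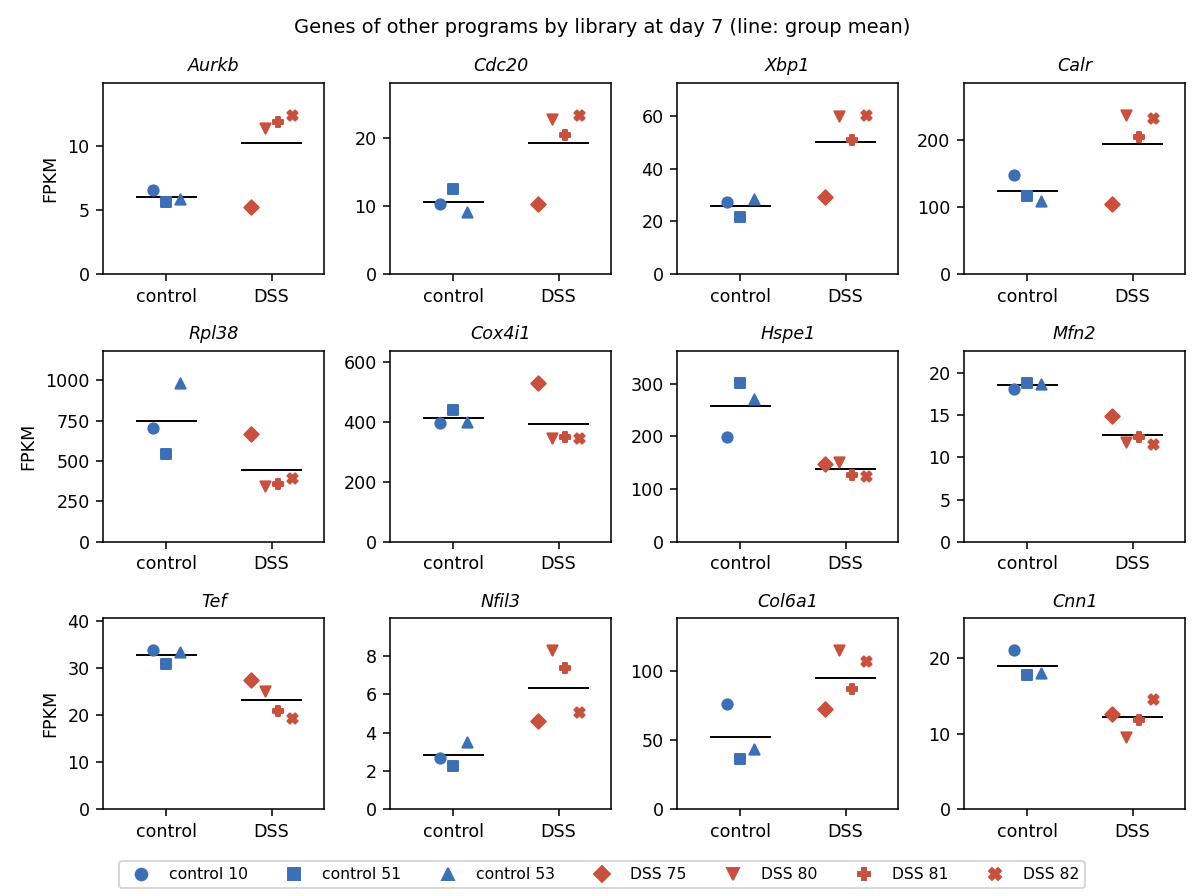
FPKM of 12 genes of cell division, protein folding, ribosome, mitochondria, clock, matrix and smooth muscle in each day 7 library (symbols as in the key; blue, control; red, DSS; black line, group mean; each y axis starts at 0). DSS replicate 75 (diamond) lies with the controls for Aurkb, Cdc20, Xbp1 and Calr, and with the other DSS libraries for Hspe1, Mfn2, Tef, Nfil3 and Cnn1.

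Of 22 collagen chains, 5 were higher and 1 lower at an unadjusted p under 0.05 (median 0.22), and of 24 matrix proteases, inhibitors and crosslinkers 4 were higher and 3 lower, against 8.46% and 7.58% of all genes. By the order of libraries, 1 of the 22 chains lay above every control in all DSS libraries and 2 below, against 6.24% and 5.87% of all genes. Col6a1 and Col6a2, chains of the beaded collagen VI filament, were at 76.2, 36.2 and 43.5 and 72.1, 115, 86.6 and 107, and at 23.6, 17.02 and 17.2 and 22.8, 33.3, 27.3 and 33.9; in both, DSS replicate 75 lay just under control replicate 10 and the other DSS libraries above every control. Col4a3, a basement membrane chain, was at 0.387, 0.309 and 0.331 and 0.640, 1.07, 1.002 and 0.890, higher in every DSS library, with no control at the filter level of 0.5 FPKM. Fbln1, an elastic fiber protein, was at 29.2, 20.3 and 20.3 and 24.8, 43.8, 45.1 and 57.9. Of the proteases, Mmp2, a gelatinase, was at 3.14, 5.02 and 3.23 and 3.15, 13.5, 10.9 and 13.01 and Plat, tissue plasminogen activator, at 4.32, 4.64 and 3.53 and 4.45, 10.9, 13.3 and 8.69. DSS replicate 75 lay within the controls for Mmp2 and Plat. With all libraries neither passed the threshold (log2 1.08 and 0.92, limma adjusted p = 0.202 and 0.146). Without replicate 75 both did (log2 1.51 and 1.20, limma adjusted p = 0.00971 and 0.00935). That library was left out because its values stood apart, as they do here, so the second fit is no separate support. Adamts1, a protease that cuts the matrix at ovulation, was lower at 12.5, 7.66 and 4.53 and 2.77, 4.29, 3.81 and 2.85. Sfrp2, a secreted modulator of WNT signalling, was higher at 3.06, 8.72 and 4.999 and 14.8, 24.3, 26.4 and 13.2.

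Of 19 smooth muscle genes, 12 had a log2 difference below 0 (median -0.23), and 3 were lower and none higher at an unadjusted p under 0.05 (7.58% and 8.46% of all genes). Des, the intermediate filament of muscle, was at 16.2, 15.8 and 12.1 in controls and 11.4, 7.30, 8.63 and 7.11 in DSS (log2 -0.72, SE 0.18, limma adjusted p = 0.106), and Cnn1, calponin, at 20.99, 17.7 and 17.99 and 12.6, 9.59, 11.8 and 14.5. Both were below every control in all 4 DSS libraries. Endothelial genes went both ways: of 27, 5 were higher and 6 lower at an unadjusted p under 0.05 (8.46% and 7.58% of all genes). Vcam1, an adhesion receptor for leukocytes, was higher in every DSS library, at 1.16, 2.54 and 2.90 and 3.15, 3.08, 4.03 and 3.06. Flt1, a receptor of vascular endothelial growth factor, was at 2.24, 4.37 and 2.76 and 1.92, 1.92, 1.21 and 1.58, and Apln, a peptide made by growing vessels, at 17.2, 7.13 and 3.67 and 2.12, 2.12, 1.12 and 1.43. Esam, an endothelial adhesion protein, was at 23.4, 36.8 and 31.7 and 25.97, 19.1, 18.7 and 18.4, and Egfl7, secreted by endothelium, at 29.7, 40.2 and 44.8 and 39.9, 16.2, 16.7 and 16.97. Flt1 and Apln lay below every control in all DSS libraries, while for Esam and Egfl7 DSS replicate 75 overlapped the controls.

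Several long non-coding RNAs stood lower. Meg3, an imprinted non-coding RNA, was at 6.59, 4.33 and 7.88 and 3.53, 2.16, 2.19 and 2.90 (log2 -0.96, SE 0.28, limma adjusted p = 0.142). Neat1, the scaffold of nuclear paraspeckles, was at 20.6, 30.03 and 21.3 and 9.96, 9.36, 12.6 and 7.51, and Malat1, an abundant RNA of nuclear speckles, at 62.6, 118 and 142 and 91.9, 54.9, 54.1 and 47.6. The groups overlapped for Malat1 only, where DSS replicate 75 exceeded control replicate 10. Of 18 abundant non-coding RNAs, 13 were tested and 4 were lower at an unadjusted p under 0.05, against 7.58% of all genes. Tra2a, a splicing regulator, was at 28.4, 45.4 and 42.8 and 19.6, 27.5, 24.1 and 21.1. Sumo2, a protein modifier with many near-identical copies in the genome, was at 4.10, 4.05 and 3.47 and 5.94, 22.7, 23.4 and 56.7; its 4 DSS values spanned a wide range and the split of its reads is uncertain.

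Immune lists differed in how they stood. In the list means of macrophage and interferon-induced genes, all 4 DSS libraries, replicate 75 included, lay on 1 side of the controls. T and NK cell genes (10 of 14 tested, median 0.07, 2 higher and none lower at an unadjusted p under 0.05) did not separate the groups, with list means of -0.13, -0.04 and 0.01 in controls and 0.38, -0.05, -0.11 and -0.06 in DSS. The list means of B and plasma cell genes (7 of 10 tested, median 0.39) overlapped too. S100a8 and S100a9, the subunits of calprotectin in neutrophils, were at 0.288, 0.468 and 0.103 and 41.4, 6.91, 5.79 and 4.24, and at 0, 0 and 0.962 and 63.9, 7.82, 8.40 and 6.54; replicate 75 exceeded the other DSS libraries for both. No day 7 control reached the filter level of 0.5 FPKM for S100a8, and 1 did for S100a9. Only 6 of 14 neutrophil genes passed the filter, so their values describe the genes that passed and not the list. Lrg1, an acute-phase glycoprotein, was at 1.28, 1.34 and 2.29 and 8.01, 3.44, 7.13 and 4.44 (log2 1.32, SE 0.23, limma adjusted p = 0.0638), and Ccl8, a chemokine for monocytes, at 0.912, 2.43 and 2.11 and 25.7, 10.6, 34.4 and 12.1. Of 17 macrophage genes 10 were higher at an unadjusted p under 0.05 and none lower (8.46% and 7.58% of all genes; median 0.54, with 0.45 within the high-share libraries and 0.62 within the others). C1qc, a chain of complement C1q, was at 22.3, 12.1 and 19.2 and 38.8, 39.7, 48.1 and 41.2. Interferon-induced genes were lower: 20 of 22 stood below 0 and 7 of 22 were lower at an unadjusted p under 0.05 and none higher, against 7.58% and 8.46% of all genes. Gbp3, a GTPase of cell-autonomous immunity, was at 13.1, 14.01 and 13.2 and 5.46, 5.30, 5.29 and 8.41 (log2 -1.04, SE 0.24, limma adjusted p = 0.0885), and Ifi27 at 132, 179 and 169 and 97.5, 72.2, 82.05 and 87.2. The interferon list differed by -0.52 within the high-share libraries and by -0.32 within the others. Alas2, the heme enzyme of red cell precursors, was at 0.609, 0.495 and 0.836 and 2.16, 3.30, 5.41 and 4.11, higher in every DSS library than in any control, as were the globin sums. Within the groups the order differed: control replicate 51 had the most globin and the least Alas2 of the controls, and DSS replicate 75 the least Alas2 of the DSS libraries. The part of blood in the results was not tested.

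Markers of tissues around the ovary were read beside these groups. Of 16 mesothelium and surface epithelium genes, 2 were lower at an unadjusted p under 0.05 (7.58% of all genes). DSS replicate 75 had the lowest mean of this list, at -0.65, against -0.06 to 0.27 in the other 6 libraries. The 8 striated muscle genes that passed the filter had their highest list mean in the same library, at 0.49, against -0.29 to 0.27 elsewhere. Motile cilia and oviduct genes (11 of 22 tested, median -0.03), adipocyte genes (14 of 20 tested, median -0.05) and neural genes (10 of 16 tested, median 0.06) lay near 0. Of 12 colon epithelium genes 5 were tested (median 0.29, 4 above 0 and 1 below), and 1 was higher at an unadjusted p under 0.05 (8.46% of all genes). The list means of these 5 overlapped, at -0.03, -0.76 and 0.14 in controls and 0.37, 0.18, 0.02 and 0.08 in DSS. The part of these tissues in the results was not tested.

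The 3 high-share libraries were then set against the rest in the same fit, with a term for high share beside the 4 group means. This term called 1640 of 17973 genes (9.12%), 891 higher (4.96%) and 749 lower (4.17%) in the high-share libraries. The difference between DSS and control, given this term, called 20 genes (0.111%), 10 in each direction. Clpp, a protease of the mitochondrial matrix, was at 97.7, 44.5 and 81.02 and 129.7, 68.2, 63.03 and 64.03 (term 0.98, SE 0.13, limma adjusted p = 0.00203), and Ehmt2, a histone methyltransferase, at 70.6, 40.9 and 64.5 and 88.3, 48.4, 47.1 and 49.5 (term 0.79, limma adjusted p = 0.00211). Both were higher in each of the 3 high-share libraries than in any of the other 4. Lower there were Rpa3, a subunit of the single-strand DNA binding complex, at 7.44, 25.8 and 8.34 and 4.51, 20.9, 23.3 and 19.2 (term -1.81, limma adjusted p = 0.0014), and Rab5a, a GTPase of early endosomes, at 4.99, 9.87 and 4.11 and 3, 12.7, 10.9 and 11.02 (term -1.33, limma adjusted p = 0.00183). Tfdp1, the partner of E2F factors, was at 12.3, 24.3 and 14.3 and 9.06, 27.1, 25.9 and 24.97. DSS replicate 75 weighed on the term itself: without it 122 genes were called, and without any other single day 7 library 1026 to 1348.

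**Figure D5:**
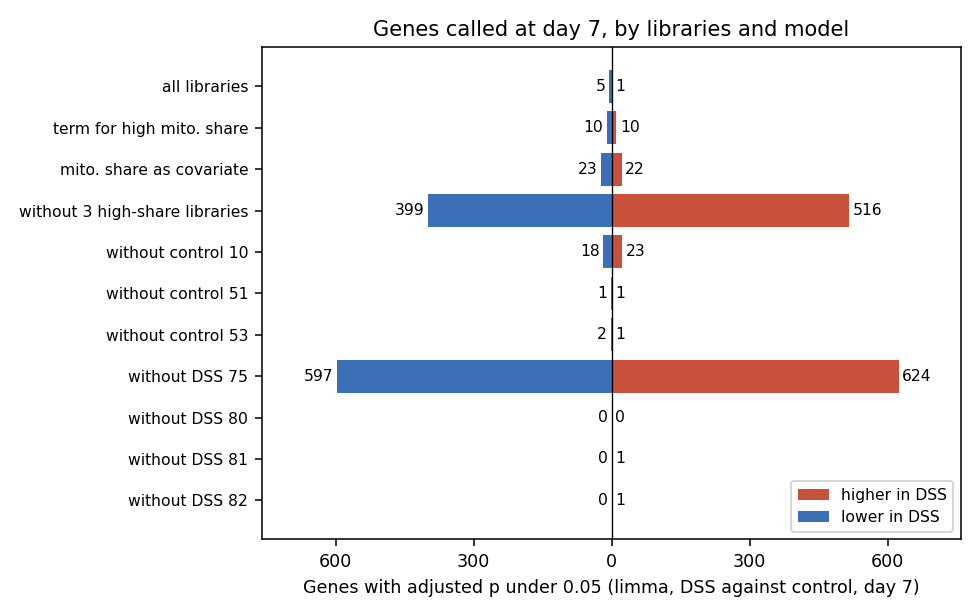
Number of genes with an adjusted p under 0.05 at day 7 (bars to the right, higher in DSS; to the left, lower), with all libraries, with mitochondrial share in the model and with libraries left out. The count is 6 with all libraries, 1221 without DSS replicate 75 and 915 without the 3 high-share libraries, and 0 to 41 without any other single library.

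Leaving out DSS replicate 75, a choice made because its values stood apart, called 1221 genes (6.78%), 624 higher (3.47%) and 597 lower (3.32%), and leaving out all 3 high-share libraries called 915 (5.08%), 516 higher and 399 lower. The second fit rests on control replicate 51 as its only day 7 control, whose spread is taken from the other groups. All its day 7 libraries are also in the first fit, so calls shared by both are in part built in. The 2 sets shared 371 genes, 30.4% of the first and 40.5% of the second. Of the 1221, 211 (17.3%) were also called by the term for high share. In 751 of the 1221 (61.5%) the DSS libraries, with replicate 75 put back, overlapped the controls. In the other 470 (38.5%) all 4 DSS libraries lay on 1 side of every control, in the direction of the call. Nrm, a protein of the inner nuclear membrane, reached 0.5 FPKM at day 7 in DSS libraries alone, so there it passed the filter through the group in which it is high. It was at 0.409, 0.332 and 0.196 and 0.608, 2.71, 2.49 and 2.65 (log2 1.47 without replicate 75, limma adjusted p = 0.000285). Psmb7, a catalytic proteasome subunit, was at 4.01, 6.51 and 5.24 and 4.84, 16.9, 14.5 and 16.2 (log2 1.45, limma adjusted p = 0.000991), and Evc2, a cilium protein of hedgehog signalling, at 7.01, 7.29 and 5.64 and 4.50, 17.1, 16.6 and 17.1 (log2 1.24, limma adjusted p = 0.00332). Mpnd, a deubiquitinase-like protein, was at 70.5, 72.1 and 74.9 and 75.7, 40.2, 38.6 and 41.6 (log2 -0.84, limma adjusted p = 0.00507) and Mdp1, a phosphatase, at 53.98, 52.3 and 51.2 and 44.1, 21.1, 26.6 and 23.9. Of these 5 genes, replicate 75 sat with or beside the controls for Psmb7 and Mpnd, below every control for Evc2 opposite to the other DSS libraries, and between both sets for Nrm and Mdp1. Treatment and mitochondrial share cannot be told apart in a single DSS library of high share.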

How the data were processed

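RNA sequencing of mouse ovaries was deposited as FPKM values; per the labels' protocols, a TruSeq kit was applied to total RNA. HISAT2 2.0.5 and GRCm38 are listed in the submitters' processing notes. The sources used here do not give the counter, gene models or strand handling. The deposited FPKM values fell on whole multiples of 1 read (100% of the values under 300 steps lay within 0.01 of one), which gave the recovered reads. Deposited gene positions matched the GENCODE M21 annotation of GRCm38 for 1435 of 52073 shared IDs, so positions come from that annotation by ID.

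Genes with at least 0.5 FPKM in 3 libraries (18006 of 56748) were tested as log2(FPKM + 1) with limma 3.58.1 (R 4.3.3; limma-trend, 4 group means, 14 libraries) and Benjamini-Hochberg adjustment at 0.05. Because the scale adds 1, changes of low genes are understated. Tested on simulated data, the fit recovered 49 of 100 genes changed by 1 and 98 of 100 changed by 2 on the log2 scale, with 10 false calls. Recovery in the measured libraries was not tested. There, S100a9 (log2 3.50, limma adjusted p = 0.078), Sumo2 (log2 2.17, limma adjusted p = 0.15) and Cyp19a1 (log2 -2.46, limma adjusted p = 0.248) were not called. An alternative ran limma's voom on the recovered reads, and trimmed-mean (TMM) factors were computed in R. Python 3.11.15, pandas and matplotlib made tables and figures. All 45 gene lists and the members compared were chosen with earlier results of these data known. Genes named were the called genes, the smallest p-values and largest folds in each direction among genes with groups that did not overlap, the first 2 and the 4 smallest p-values of each list, and the leaders of the high-share term and of the fit without DSS replicate 75; Zp2, Cyp51, Mcm5, H3f3a, Hspd1, Calr, Egfl7 and Vcam1 were added after their values were seen. Some genes that this rule names are not reported here.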

Additional observations from a re-analysis of the deposited data

Results flagged for a closer look

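Among the 4 DSS libraries, the highest or lowest value was set against the other 3 with Dixon's gap ratio and its 95% critical value for 117 genes named here and 3 library measures. The ratio passed it in 21 of 120 groups, where chance gives about 1 in 20, and the library set apart was replicate 75 in 17 of them. Part of the genes were named because they led the fit without replicate 75 or were added after their values were seen, so these counts do not measure how often that library stands apart. Its mitochondrial share of 14.2% was set apart from 3.48 to 4.04%. In the genes that follow, replicate 75 is set against the lowest and highest of the other 3 in FPKM. It was higher for S100a8 (41.4 against 4.24 to 6.91) and S100a9 (63.9 against 6.54 to 8.40), both also far above every control. It was higher, at or towards control level, for Trp53inp2 (28.1 against 15.9 to 17.6), Elovl6 (10.98 against 2.55 to 3.84), Malat1 (91.9 against 47.6 to 54.9), Atf4 (125.9 against 89.98 to 94.8), Esam (25.97 against 18.4 to 19.1), Egfl7 (39.9 against 16.2 to 16.97), Rpl38 (664 against 343 to 397) and Mpnd (75.7 against 38.6 to 41.6). For Cox4i1 it exceeded every other library (531 against 345 to 350). It was lower, at or near control level, for Aurkb (5.24 against 11.4 to 12.5), Nrm (0.608 against 2.49 to 2.71), Evc2 (4.502 against 16.6 to 17.1) and Prdx4 (15.3 against 35.97 to 39.3), and lower than every other library for Igfbp2 (22.35 against 37.05 to 39.55). Other libraries were set apart for 4 genes: replicate 81 for Bpifb4 (27.5 against 38.8 to 39.4) and Vcam1 (4.03 against 3.06 to 3.15), replicate 80 for Pmvk (3.86 against 6.35 to 6.82) and replicate 82 for Gbp3 (8.41 against 5.29 to 5.46). The difference of the DSS effect between day 7 and day 89 passed the threshold for none of these 117 genes (smallest limma adjusted p = 0.254).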

How the results depend on the processing

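Against 6 genes called, 4 passed with no filter on low values, 2 with a pseudocount of 0.1 FPKM, 2 with a mean of at least 1 FPKM, 0 with the 7 day 7 libraries alone (smallest limma adjusted p = 0.133; 2449 genes at an unadjusted p under 0.05), 1 after rescaling without mitochondrially encoded genes, 3 with TMM, 0 with voom on recovered reads (smallest adjusted p = 0.0553; 3045 unadjusted), 11 after removal of a length trend, 20 with a term for high share, 45 with the share as covariate and 915 without the 3 high-share libraries. Leaving out single libraries gave 0 (DSS replicate 80) to 1221 (DSS replicate 75), with 41 without control replicate 10. The 2181 genes whose groups did not overlap became 2017 after rescaling, 2160 with TMM and 2231 without the length trend, and 2522 to 5536 as 1 library was left out, which by itself makes overlap rarer. The 1640 genes of the high-share term became 967 in the day 7 libraries alone, 1545 with the smaller pseudocount, 1819 after rescaling and 1732 without the length trend; without 1 library, an alternative added after seeing the data, they were 122 (DSS replicate 75) to 1348. Of 117 named genes, 116 kept the direction of their difference in all alternatives; Cox4i1 (-0.09) was at 0.005 after rescaling and 0.018 with the share term. List medians moved by more than the spread between libraries in 58 of 810 values. No paired analysis was possible because no replicate number recurs between groups. The cause of these changes was not tested. With 3 and 4 libraries, 1 library decides most calls.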

Other observations

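Genes of cell survival and growth were also measured. Of 28 genes of the p53 response and apoptosis, 2 were higher and 5 lower at an unadjusted p under 0.05 (8.46% and 7.58% of all genes; median 0.02). Ccng1, a p53 target, was at 24.4, 21.2 and 20.9 FPKM in controls 10, 51 and 53 and 17.4, 17, 16.3 and 17.4 in DSS 75, 80, 81 and 82, below every control. Casp8, a caspase that starts apoptosis, was at 7.92, 9.83 and 9.57 and 10.8, 12.5, 13.8 and 11.9, above every control, and Mdm2, the ligase that degrades p53, at 13.8, 15.6 and 17.3 and 15.5, 9.91, 11.1 and 11.01. None passed the threshold (limma adjusted p = 0.204, 0.251 and 0.281). Cdkn1b, a cell cycle inhibitor that holds primordial follicles at rest, was at 40.4, 59.3 and 35.6 and 31.4, 26.1, 32.7 and 24.1, lower in every DSS library (log2 -0.62, SE 0.27, limma adjusted p = 0.281). Igfbp2, a carrier of insulin-like growth factors, was at 90.1, 56.5 and 39.2 and 22.4, 37.6, 37.05 and 39.5, with DSS replicate 75 lowest. Pdk1, a kinase of pyruvate dehydrogenase, was at 4.57, 3.39 and 3.08 and 4.09, 5.81, 6.39 and 6.35. Igkc, the kappa light chain of antibodies, was at 5.38, 3.15 and 6.61 and 9.91, 17.1, 11.02 and 9.48, higher in every DSS library (log2 1.10, SE 0.32, limma adjusted p = 0.15).

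Control replicate 51 stood apart from the other controls in genes of large follicles. Cyp19a1, the aromatase that makes estradiol, was at 1.77, 74.6 and 7.55 in controls and 0.706, 1.06, 0.795 and 2.72 in DSS, and Inhba, the activin beta-A subunit, at 18.6, 256 and 59.3 and 9.47, 12.5, 30.7 and 55.6. Control replicate 51 also had the highest list means of luteal, steroidogenesis, cholesterol and theca genes (0.54, 0.86, 0.60 and 0.35). Neither Cyp19a1 nor Inhba passed the threshold (limma adjusted p = 0.248 and 0.351).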
